A study of Mus musculus with 8 samples.

Results

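The genes described here encode 9 surface proteins that are used, alone or in combination, to tell the stages of B-cell development apart: *Ptprc*, *Spn*, *Cd24a*, *Cd22*, *Cd72*, *Ms4a1*, *Cd2*, *Il2ra* and *Cd38*. They were taken by name from the 27179 genes of an RNA-seq count table, by a rule that uses no measured value but was set with earlier results of these data known, and all 9 were found and passed the filter on low counts in every comparison. The table holds 8 libraries of sorted mouse bone marrow cells, with 2 biological replicates in each of 4 groups. The 3 successive stages pre-proB, proB and preB were sorted from control mice with floxed *Erg* alleles and no *Rag1Cre* allele (*Rag1Cre* +/+;*Erg* fl/fl). The fourth group, called Erg-deficient here, was the pre-proB stage of mice with the genotype *Rag1Cre* T/+;*Erg* Δ/Δ, in which Cre expressed from the *Rag1Cre* allele deletes floxed *Erg*, an ETS family transcription factor, in lymphoid progenitors. Mice were 7 to 10 weeks old. Loss of *Erg* and the presence of Cre cannot be told apart in this comparison, since the controls lacked Cre. RNA came from 2 mice of each genotype, so the stages of the controls may share animals, and which mouse gave which library was not given.

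B-cell progenitors pass from the pre-proB stage, at which the immunoglobulin heavy chain is not yet fully rearranged, through the proB stage to the preB stage, at which the heavy chain is expressed. Surface proteins change along the way, and the flow cytometry of the field names stages by them. CD43, encoded by *Spn*, marks early progenitors, CD24 appears with commitment, CD25, encoded by *Il2ra*, and CD2 mark preB cells, and CD20 and CD22 increase towards the mature cell.

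Some of these proteins also defined the sort, and differences in their RNA between gates are not findings. All 4 populations were gated as positive for B220, an isoform of the *Ptprc* protein, and as negative for surface IgM and IgD, for NK1.1 and for CD11c. Pre-proB cells were CD43+ and CD24-, proB cells CD43+ and CD24+, and preB cells CD43- and CD24+. *Cd24a* was therefore gated between pre-proB cells and both later stages, and *Spn* between preB cells and both earlier stages. The other 6 genes were not part of the gates.

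Promoter windows from RefSeq (build GRCm38.p6) were read for 6 of the 9 genes, namely *Ptprc*, *Spn*, *Cd22*, *Cd72*, *Il2ra* and *Cd38*, and *Cd24a*, *Ms4a1* and *Cd2* had no entry. The 150 bases before an annotated start are shown for *Il2ra* and *Spn*, whose RNA moved in opposite directions along the stages. The letters GGAA, the core of ETS family sites, are in capitals on either strand (TTCC on the strand printed). The *Il2ra* window is chr2:11642642-11642791 on the plus strand, and the *Spn* window is chr7:127137824-127137973 on the minus strand. Neither overlaps an annotated exon. The *Spn* window lies within the span of the gene given below, before an internal start. The first bases after the *Il2ra* window were not found in an annotated transcript of the gene.
Il2ra: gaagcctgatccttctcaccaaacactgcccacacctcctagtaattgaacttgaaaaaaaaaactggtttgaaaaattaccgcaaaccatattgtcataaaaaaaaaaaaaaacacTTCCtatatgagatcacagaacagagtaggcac
Spn: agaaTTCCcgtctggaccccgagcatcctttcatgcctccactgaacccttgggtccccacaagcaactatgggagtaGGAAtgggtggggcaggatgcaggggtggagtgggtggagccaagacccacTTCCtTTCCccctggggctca
The third sequence is a stretch of 30 bases of the *Cd22* promoter window, at chr7:30879058-30879087 on the minus strand. It overlaps no annotated exon. The *Cd22* window also lies within the span of the gene given below, before an internal start, and its 150 bases before that start overlap annotated *Cd22* exons. Capitals in the stretch mark a match to the palindrome read by Ebf1, TCCC and GGGA with 2 bases of any kind between them.
Cd22: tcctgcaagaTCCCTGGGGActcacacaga
Over the 250 bases before the start, on both strands, GGAA was found in the windows of all 6 genes, from 1 match in *Cd72* to 7 in *Spn*, and in 93.4% of 32851 RefSeq promoter windows. The longer GGAAGT, which contains GGAA, was found in *Ptprc*, *Spn*, *Cd72*, *Il2ra* and *Cd38* but not in *Cd22*, against 19.7% of all windows. The Ebf1 palindrome was found in *Cd22* alone of the 6, against 0.779% of all windows, and so was the E-box CAGGTG, against 17.2%. A match of letters is a description and not a binding site.

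Counts per library summed to between 15565381 and 18457632, and 3 counts correspond to between 0.1625 and 0.1927 CPM, the counts scaled to library size. *Erg* itself stood at 2.50 and 2.58 CPM in the Erg-deficient libraries, against 69.1 and 25.3 CPM in control pre-proB, 144 and 127 CPM in proB, and 19.6 and 28.7 CPM in preB libraries, so the genotype labels held. The pre-proB libraries of both genotypes stood apart in the RNA of plasmacytoid dendritic, T and NK cell markers, but not of every other cell type listed. All 7 plasmacytoid dendritic cell markers on a fixed list were lower in proB than in pre-proB cells, and their summed level was 11800 to 14280 CPM in the pre-proB libraries against 407 to 529 CPM at the later stages. The 7 T-cell and 8 NK-cell markers were lower in proB cells without exception, with sums of 77.1 to 113 and 220.9 to 430.5 CPM in pre-proB libraries against at most 9.12 and 15.64 CPM later. Myeloid markers went both ways, with 3 of 8 called higher and 2 lower in proB than in pre-proB cells. Their sums were 104.6 to 216.8 CPM in pre-proB, 155.9 and 377.9 CPM in proB, and 80.3 and 60.4 CPM in preB libraries. Erythroid markers summed to at most 1.42 CPM in pre-proB libraries and to 4.75 to 6.86 CPM later. The 12 B-lineage markers summed to 2538 and 1362 CPM in the control pre-proB libraries and to 6413 to 6747 CPM in proB cells. Of the 12, 11 were called higher in proB cells. The sum was 8474 to 8991 CPM in preB cells, with 2 of the 12 called higher and 3 lower than in proB cells. *Igll1*, a surrogate light chain gene, stood at 685 and 621 CPM in proB and 103 and 155 CPM in preB libraries. Control pre-proB replicate 1 held more of the B-lineage markers than replicate 2, by a median ratio of 2.65. The ratio of the 9 surface marker genes lay between 0.788 and 1.52. Whether the RNA of markers of other cell types came from other cells or from the sorted stages themselves was not tested. The part of any such other cells in the differences between pre-proB cells and later stages was not tested either. In bulk RNA fewer cells of a type cannot be told apart from less RNA per cell.

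The stages were compared first. The question was which of the surface marker genes changed at which step of normal development, and genes are taken by role, starting with the broad leukocyte proteins. A gene was called when edgeR's quasi-likelihood test gave an adjusted p below 0.05. From pre-proB to proB cells all 9 genes were called, 7 higher and 2 lower, while 36.2% of the 13650 genes tested were called higher and 36.8% lower. From proB to preB cells 7 were higher, 1 was lower and *Cd24a* was not called, against 29% called higher and 29.9% called lower over all genes. Between the outer stages 7 were higher and 2 lower in preB cells, against 36.5% and 34.1%. Without the genes that the gates separated, the counts were 6 higher and 2 lower of 8 at the first step, 7 higher and 0 lower of 8 at the second, and 6 higher and 1 lower of 7 between the outer stages. The median log2 fold change of the 9 genes was 2.18, 1.20 and 2.72 in the same order, against 0.00, -0.00 and 0.04 over all genes tested.

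**Figure D1:**
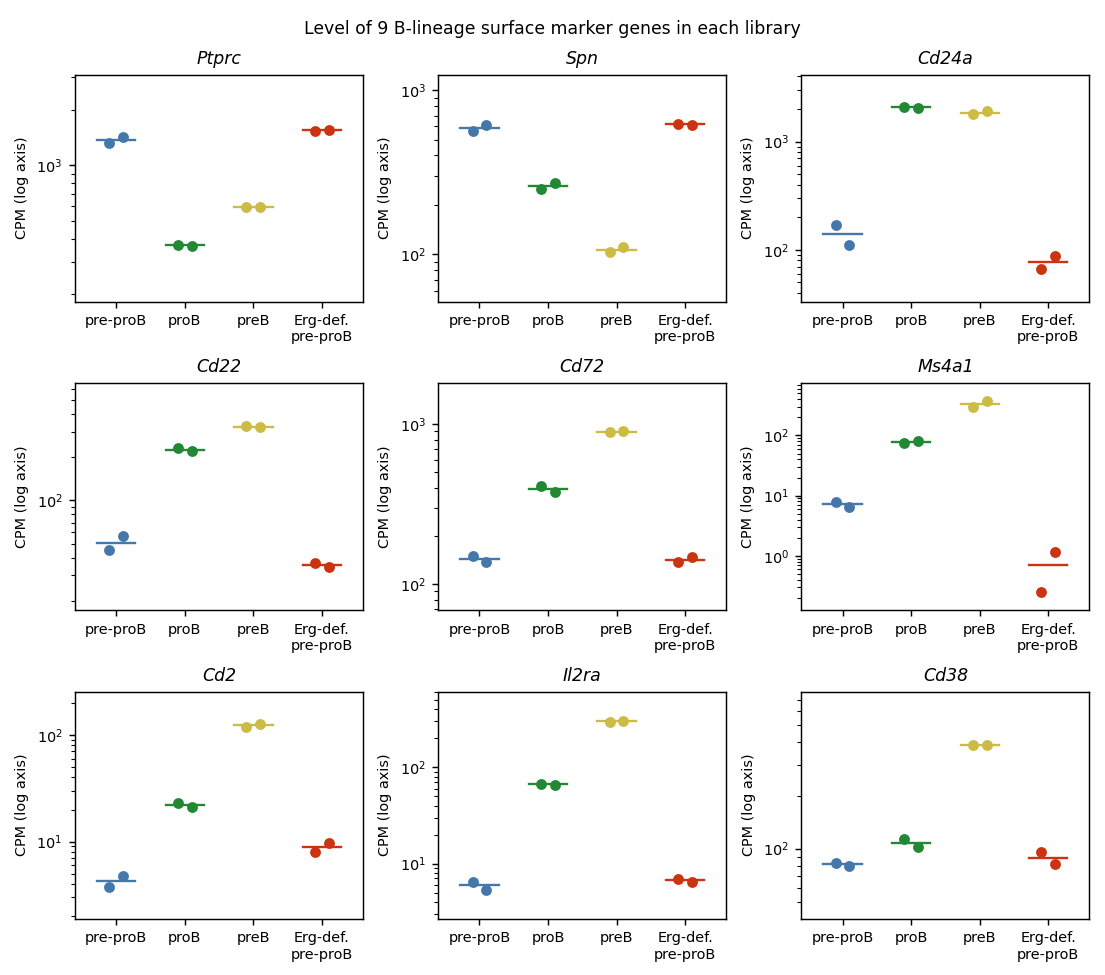
Level of each gene in CPM, on a logarithmic axis, in each of the 8 libraries (points) with the mean of each group (line), for control pre-proB, proB and preB cells and Erg-deficient pre-proB cells. *Ms4a1*, *Cd2* and *Il2ra* climb at each control stage, *Spn* descends, *Ptprc* is lowest in proB cells, and *Ms4a1* is lowest in the Erg-deficient libraries.

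*Ptprc* (Entrez Gene 19264, chr1:138062859-138175756, minus strand) encodes CD45, the receptor tyrosine phosphatase of nucleated blood cells, which acts on Src family kinases. It stood at 1323 and 1414 CPM in control pre-proB, 370.9 and 364.3 CPM in proB, and 596 and 595 CPM in preB libraries. The libraries of the stages did not overlap, and proB cells were lowest although all populations were sorted as B220+. *Ptprc* was 3.72-fold lower in proB than in pre-proB cells (log2 fold change -1.86, SE 0.07, edgeR adjusted p = 7.88e-08). It was 1.62-fold higher in preB than in proB cells (log2 fold change 0.70, SE 0.07, edgeR adjusted p = 6.85e-05), and still below the pre-proB level. The table counts the gene as a whole, so the isoforms that the B220 antibody separates are not resolved.

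Of 6 partners and Src family substrates of CD45, 3 were called higher and 1 lower in proB than in pre-proB cells, and 4 higher and 2 lower in preB than in proB cells. The kinase genes *Fyn* and *Blk* went opposite ways at the first step, with log2 fold changes of -3.27 (SE 0.07, edgeR adjusted p = 5.17e-09) and 1.60 (SE 0.07, edgeR adjusted p = 1.05e-07). *Hnrnpll*, which encodes a regulator of CD45 splicing, fell from proB to preB cells by 2.56 (SE 0.43, edgeR adjusted p = 0.00108), from levels that were already under 4 CPM. Its companion *Hnrnpl* rose by 0.21 at the first step (SE 0.06, edgeR adjusted p = 0.0174).

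*Spn* (Entrez Gene 20737, chr7:127123637-127145552, minus strand) encodes CD43, a heavily glycosylated sialomucin. It stood at 560 and 614 CPM in control pre-proB, 251 and 272 CPM in proB, and 103 and 111 CPM in preB libraries. Every step was downward with no overlap. Pre-proB and proB cells were both gated as CD43+, and between them *Spn* was 2.24-fold lower in proB cells (log2 fold change -1.13, SE 0.08, edgeR adjusted p = 2.85e-06). The further drop to preB cells, 2.45-fold, goes with the CD43 gate. Of 7 genes for ligands, sialic acid enzymes and CD43 anchors, 3 were called higher and 3 lower in proB than in pre-proB cells. Among the lower ones, *Selplg*, which encodes the selectin ligand PSGL-1, fell by 3.06 on the log2 scale (SE 0.08, edgeR adjusted p = 1.34e-08), and *Cmah*, a sialic acid hydroxylase, fell by 2.76 (SE 0.08, edgeR adjusted p = 1.48e-08). *Cmah* rose again by 1.48 from proB to preB cells (SE 0.07, edgeR adjusted p = 3.87e-06). *Sema4d*, which encodes the CD72 ligand CD100, fell at the first step by 1.86 (SE 0.08, edgeR adjusted p = 1.11e-07) and at the second by 0.51 (SE 0.08, edgeR adjusted p = 0.000572).

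*Cd24a* (Entrez Gene 12484, chr10:43579169-43584265, plus strand) encodes CD24, a small protein held in the membrane by a lipid anchor. It stood at 169 and 111 CPM in control pre-proB libraries, 2081 and 2063 CPM in proB, and 1784 and 1896 CPM in preB. The 14.8-fold higher mean in proB than in pre-proB cells goes with the CD24 gate. ProB and preB cells were both gated as CD24+. Their libraries did not overlap, but the difference was within the error of the fit (log2 fold change -0.16, SE 0.16, edgeR adjusted p = 0.395). Without pre-proB replicate 1 (which held 1.52 times as much as replicate 2) the value was -0.18 with an edgeR adjusted p of 0.0497. Intronless copies of this gene exist in the mouse genome, and how reads shared with them were counted is not given in the sources used here.

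*Cd22* (Entrez Gene 12483, chr7:30865404-30880342, minus strand) encodes a sialic acid-binding receptor that inhibits B-cell receptor signalling through its cytoplasmic tyrosine motifs. It stood at 45.3 and 56.2 CPM in control pre-proB libraries, 231 and 219 CPM in proB, and 327.5 and 323 CPM in preB. Most of its increase lay at the first step, 4.44-fold (log2 fold change 2.18, SE 0.10, edgeR adjusted p = 1.92e-07), and the second step was 1.44-fold (log2 fold change 0.54, SE 0.09, edgeR adjusted p = 0.00117). *Cd72* (Entrez Gene 12517, chr4:43447724-43455102, minus strand) encodes a lectin-like receptor that also inhibits B-cell receptor signalling. It stood at 151 and 138 CPM in control pre-proB, 411 and 375 CPM in proB, and 893 and 903 CPM in preB libraries. The increase was spread over both steps, 2.72-fold (log2 fold change 1.48, SE 0.08, edgeR adjusted p = 4.28e-07) and then 2.28-fold (log2 fold change 1.20, SE 0.08, edgeR adjusted p = 7.71e-06). *Cd72* overlaps the protein-coding gene *Tesk1* in the annotation.

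Other inhibitory receptors and their signalling genes did not follow as a group. Of 8, 2 were called higher and 5 lower in proB than in pre-proB cells, with a median log2 fold change of -0.55 against 0.00 over all genes, and 5 were called higher and 2 lower in preB than in proB cells. *Lair1*, which encodes a collagen receptor of many leukocytes, stood at 669.9 and 709 CPM in control pre-proB libraries against 11.2 and 16.1 CPM in proB, and fell by 5.62 on the log2 scale (SE 0.14, edgeR adjusted p = 1.02e-08). *Pirb*, a receptor for MHC class I, fell by 4.59 (SE 0.18, edgeR adjusted p = 7.71e-08). *Siglecg*, which like *Cd22* encodes a sialic acid-binding inhibitory receptor of B cells, rose from proB to preB cells by 1.31 (SE 0.08, edgeR adjusted p = 6.33e-06), and *Lyn*, the kinase that phosphorylates such receptors, rose by 1.17 (SE 0.08, edgeR adjusted p = 1.28e-05). *Lair1* and *Pirb* fell together with the plasmacytoid dendritic, T and NK markers given above, and the part of any such cells was not tested.

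*Ms4a1* (Entrez Gene 12482, chr19:11249679-11266149, minus strand) encodes CD20, a membrane protein that spans the membrane several times and modulates calcium entry in B cells. It stood at 7.83 and 6.56 CPM in control pre-proB libraries, 74.3 and 80.5 CPM in proB, and 296 and 372 CPM in preB. The steps were 10.8-fold (log2 fold change 3.46, SE 0.15, edgeR adjusted p = 1.52e-07) and 4.32-fold (log2 fold change 2.12, SE 0.11, edgeR adjusted p = 4.31e-06). Its RNA was therefore plain in the cells gated as proB and preB, while CD20 protein is best known from mature stages. Of 6 mature B-cell markers, 5 were called higher and 0 lower in preB than in proB cells by edgeR. Their sums were 116.9 and 115.9 CPM in proB and 358.4 and 339.6 CPM in preB libraries. The part of more mature cells in the rise of *Ms4a1* and the other surface marker genes was not tested. The rest of the CD20 family behaved differently. Of 8 genes 5 passed the filter, and 4 of these were called lower and none higher in proB than in pre-proB cells by edgeR (0 higher and 4 lower at an unadjusted p below 0.05 as well). *Ms4a6c* fell by 3.21 on the log2 scale (SE 0.12, edgeR adjusted p = 7.34e-08) and *Ms4a4c* by 3.14 (SE 0.18, edgeR adjusted p = 6.47e-07). At the second step 3 of the 5 were higher, among them *Ms4a6c* with 1.67 (SE 0.13, edgeR adjusted p = 1.90e-05), and 1 was lower. *Ms4a1* overlaps a long non-coding RNA in the annotation.

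*Cd2* (Entrez Gene 12481, chr3:101275908-101287939, minus strand) encodes an adhesion receptor of T, NK and B-lineage cells that binds CD48 in the mouse. It stood at 3.79 and 4.80 CPM in control pre-proB libraries, 22.9 and 20.9 CPM in proB, and 119 and 128 CPM in preB. Both steps were large and of like size, 5.11-fold (log2 fold change 2.38, SE 0.12, edgeR adjusted p = 4.27e-07) and 5.61-fold (log2 fold change 2.50, SE 0.09, edgeR adjusted p = 1.88e-06). By p-value *Cd2* ranked 9 of the 13650 genes tested between proB and preB cells. Of 9 genes for CD2 ligands, adaptors and SLAM family receptors, 4 were called higher and 4 lower at the first step, and 4 higher and 1 lower at the second. *Cd244a*, which encodes the other CD48 receptor 2B4, fell at both, by 3.96 (SE 0.11, edgeR adjusted p = 1.24e-08) and by 1.03 (SE 0.15, edgeR adjusted p = 0.000522). *Cd2ap*, the gene of a CD2 adaptor, fell by 1.16 at the first step (SE 0.06, edgeR adjusted p = 3.85e-07) and rose by 0.34 at the second (SE 0.06, edgeR adjusted p = 0.00133).

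*Il2ra* (Entrez Gene 16184, chr2:11642792-11693194, plus strand) encodes CD25, the alpha chain of the interleukin 2 receptor, which raises the affinity of the receptor but does not signal itself. It stood at 6.48 and 5.35 CPM in control pre-proB libraries, 67.1 and 65.6 CPM in proB, and 293 and 305 CPM in preB. Each stage lay well above the one before, 11.2-fold (log2 fold change 3.52, SE 0.09, edgeR adjusted p = 1.17e-08) and then 4.50-fold (log2 fold change 2.18, SE 0.07, edgeR adjusted p = 1.19e-06). At the second step it ranked 4 of the 13650 genes by p-value. Of 7 genes for other receptor chains and signalling proteins, 1 was called higher and 5 lower in proB than in pre-proB cells, and 3 higher and 2 lower in preB than in proB cells. *Il2rb*, the signalling beta chain, fell by 4.20 (SE 0.44, edgeR adjusted p = 3.07e-05), from 21.5 and 31.4 CPM to 0.601 and 2.16 CPM. *Stat5a* fell by 0.67 (SE 0.06, edgeR adjusted p = 1.79e-05). From proB to preB cells *Jak3* fell by 1.18 (SE 0.06, edgeR adjusted p = 4.24e-06) while *Il2rg*, the common gamma chain, rose by 0.53 (SE 0.06, edgeR adjusted p = 0.000104). *Il2rb* is also expressed by NK cells, whose markers fell at the same step, and their part was not tested.

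*Cd38* (Entrez Gene 12494, chr5:43868809-43912374, plus strand) encodes an ectoenzyme that consumes NAD. It stood at 83.3 and 80.1 CPM in control pre-proB libraries, 113 and 102 CPM in proB, and 388 and 389 CPM in preB. In contrast to *Cd22*, most of its increase lay at the second step, which was 3.62-fold (log2 fold change 1.86, SE 0.07, edgeR adjusted p = 1.88e-06). The first step was 1.31-fold (log2 fold change 0.43, SE 0.07, edgeR adjusted p = 0.000484). Of 4 other NAD and nucleotide ectoenzyme genes, 1 was called higher and 3 lower at the first step. The one that rose, *Bst1*, is the closest relative of *Cd38* and gained 1.75 on the log2 scale (SE 0.22, edgeR adjusted p = 0.000119), and *Entpd1* fell by 1.11 (SE 0.06, edgeR adjusted p = 7.15e-07). At the second step edgeR called none of the 4, with 1 higher at an unadjusted p below 0.05, and *Bst1* stood at 0.14 (SE 0.20, edgeR adjusted p = 0.575).

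**Figure D2:**
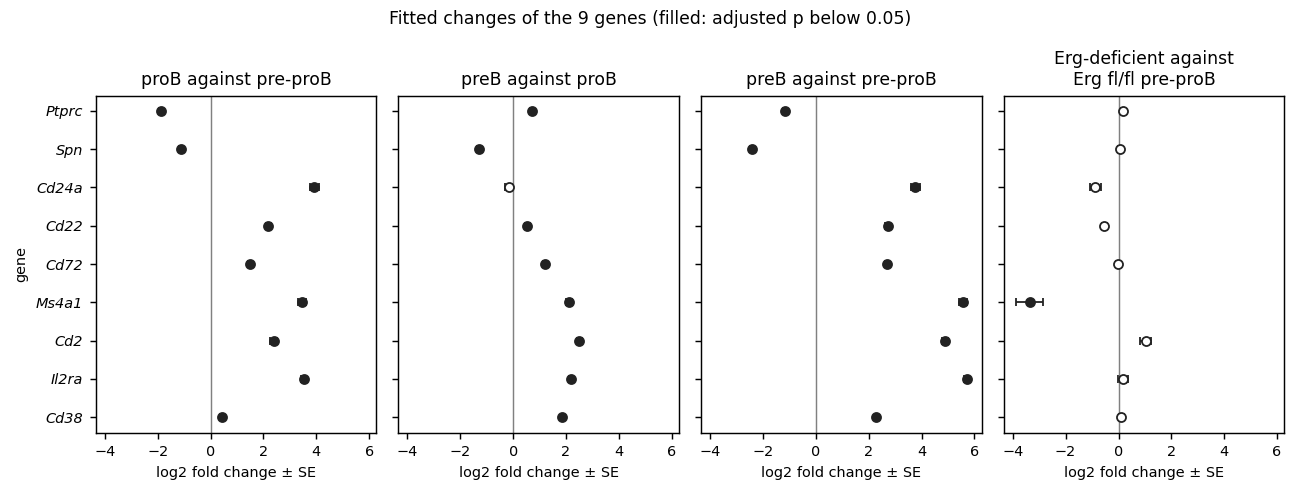
Fitted log2 fold change of each of the 9 genes with its standard error (bars) in the 4 comparisons, from edgeR. Filled points had an adjusted p below 0.05: all 9 in the first panel, all except *Cd24a* in the second, all 9 in the third and *Ms4a1* alone in the fourth.

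Levels of different genes can be compared only per length, as FPKM (CPM per kilobase of annotated transcript). In control pre-proB cells *Ptprc* led with 267 ± 12.6 FPKM (SD, n = 2), followed by *Spn* with 157 ± 10.1 FPKM, and *Ms4a1* and *Il2ra* were lowest with 2.34 ± 0.29 and 1.34 ± 0.18 FPKM. In proB cells *Cd24a* led with 1141 ± 7.09 FPKM and *Il2ra* was again lowest with 15.0 ± 0.25 FPKM. In preB cells *Cd24a* led with 1013 ± 43.4 FPKM, *Cd72* followed with 325 ± 2.62 FPKM, and *Spn* was lowest with 28.6 ± 1.41 FPKM. *Cd38*, *Ptprc*, *Ms4a1* and *Cd2* were packed together in preB cells between 106.8 and 118.8 FPKM, which is less than the SD of 17.4 FPKM of *Ms4a1*. Across the 4 groups, the highest mean exceeded the lowest 4.20-fold for *Ptprc*, 4.76-fold for *Cd38* and 5.79-fold for *Spn*, against 50.5-fold for *Il2ra* and 473-fold for *Ms4a1*.

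**Figure D3:**
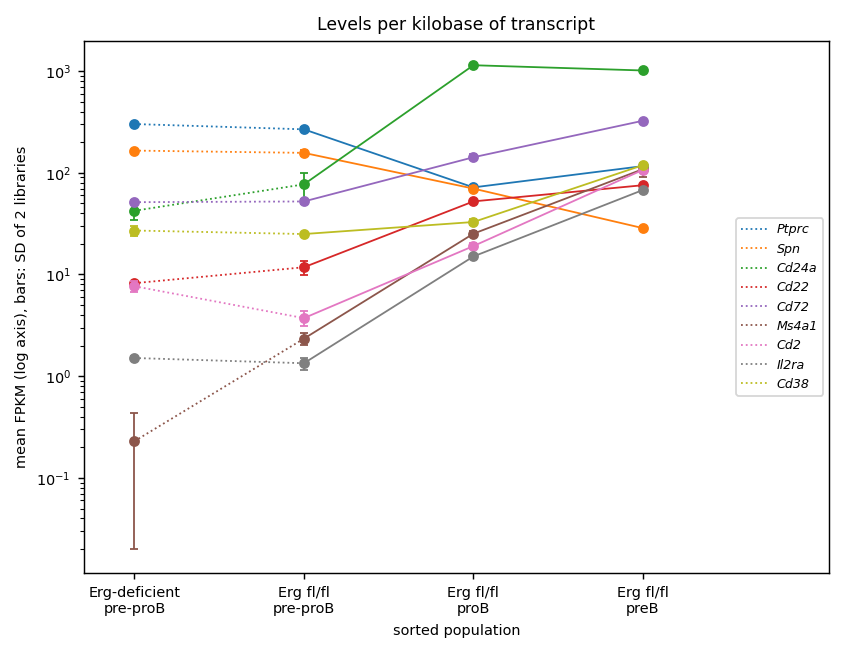
Mean level of each gene in FPKM, on a logarithmic axis, with the SD of 2 libraries (bars), in Erg-deficient pre-proB cells and the 3 control stages. Solid lines join the control stages and dotted lines the genotypes. The spread between genes narrows from pre-proB to preB cells, where 4 genes meet between 106.8 and 118.8 FPKM, and the dotted line of *Ms4a1* is the steepest.

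The Erg-deficient pre-proB cells were compared with control pre-proB cells, to see which surface marker genes differed in pre-proB cells when *Erg* was deleted. Of the 9 genes 1, *Ms4a1*, was called lower and 0 were called higher by edgeR, with 3 lower and 1 higher at an unadjusted p below 0.05. Of the 13005 genes tested, 0.946% were called lower and 0.215% higher. The libraries of the genotypes did not overlap for 6 of the 9 genes, *Ptprc* and *Spn* with their small differences among them. Lack of overlap alone therefore does not single out a gene here. The share of all genes without overlap was not counted in any comparison. DESeq2 called 2 lower and 0 higher, and limma-voom called 0 in either direction.

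*Ms4a1* stood at 7.83 and 6.56 CPM in the control libraries, or 122 and 108 counts, and at 0.25 and 1.16 CPM in the Erg-deficient libraries, or 4 and 18 counts. Both Erg-deficient libraries lay below both controls, and they differed from each other more than the controls did. The mean was 10.2-fold lower (log2 fold change -3.36, SE 0.50, edgeR adjusted p = 0.0403). The call was kept in 11 of 16 alternatives, with values between -4.82 and -2.63 and an adjusted p of up to 0.106. It was lost without Erg-deficient replicate 1 (-2.63, edgeR adjusted p = 0.106) and without Erg-deficient replicate 2 (-4.82, edgeR adjusted p = 0.0588). It was kept without control replicate 1 (-3.22, edgeR adjusted p = 0.0247), the library with more B-lineage RNA. The 12 B-lineage markers summed to 2538 and 1362 CPM in the controls and 699.6 and 804.4 CPM in the Erg-deficient libraries, with 9 of 12 called lower, and their part in the *Ms4a1* difference was not tested.

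A further 2 genes were lower without passing the threshold in the fit of the 4 pre-proB libraries. *Cd24a* stood at 169 and 111 CPM in the controls and 66.4 and 87.3 CPM in the Erg-deficient libraries, which did not overlap (log2 fold change -0.88, SE 0.22, edgeR adjusted p = 0.136). It passed in 2 of 16 alternatives, without control replicate 2 (-1.17, edgeR adjusted p = 0.00147) and in the fit of all 8 libraries, and ranged from -1.17 to -0.53. *Cd22* stood at 45.3 and 56.2 CPM against 36.4 and 34.4 CPM, also without overlap (log2 fold change -0.53, SE 0.10, edgeR adjusted p = 0.0764). It passed in 3 of 16 alternatives, without control replicate 1 (-0.67, edgeR adjusted p = 0.0173), with DESeq2 and in the fit of all 8 libraries, and ranged from -0.67 to -0.39. The pair differed in which control library was higher. *Cd24a* was 1.52 times as high in control replicate 1 as in replicate 2, the direction of the B-lineage markers, and *Cd22* only 0.806 times as high.

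*Cd2* was the gene with the largest difference upward, at 3.79 and 4.80 CPM in the controls and 8.06 and 9.62 CPM in the Erg-deficient libraries. The groups did not overlap, but the difference did not pass (log2 fold change 1.03, SE 0.20, edgeR adjusted p = 0.0776), except in the fit of all 8 libraries (1.04, edgeR adjusted p = 0.00869) and without control replicate 2 (1.19, edgeR adjusted p = 0.0483). NK markers moved with it. Their summed level was 220.9 and 229 CPM in the controls and 294 and 430.5 CPM in the Erg-deficient libraries, with 5 of 8 called higher, although NK1.1+ cells were gated out. Among the defining ones, *Ncr1* stood at 2.12 and 2.92 CPM against 15.1 and 26.0 CPM. *Klrd1* made up most of the control NK sum, at 174.5 and 173.6 CPM. It differed little in the Erg-deficient libraries, at 163.8 and 219.7 CPM, 1 below and 1 above both controls. None of the 7 T-cell markers was called by edgeR (1 at an unadjusted p below 0.05, *Trbc1*), with sums of 77.1 and 91.2 CPM against 88.2 and 113 CPM. CD2 is carried by NK and T cells, and their part in the *Cd2* difference was not tested.

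The other 5 genes differed little between genotypes. *Ptprc* stood at 1534 and 1551 CPM in the Erg-deficient libraries, slightly above both controls (log2 fold change 0.16, SE 0.07, edgeR adjusted p = 0.429). *Spn* stood at 621.5 and 615 CPM, also just above both controls (log2 fold change 0.06, SE 0.07, edgeR adjusted p = 0.759). *Cd72* stood at 137.5 and 147 CPM and overlapped the controls (log2 fold change -0.04, SE 0.08, edgeR adjusted p = 0.891). These 3 genes were measured from 2201 or more counts in each library. *Il2ra* stood at 6.87 and 6.46 CPM (log2 fold change 0.16, SE 0.19, edgeR adjusted p = 0.789) and *Cd38* at 95.4 and 81.5 CPM (log2 fold change 0.10, SE 0.09, edgeR adjusted p = 0.693), and both overlapped the controls. Of the 47 partner genes tested between genotypes, 0 were called higher and 0 lower by edgeR, with 5 higher and 6 lower at an unadjusted p below 0.05, and the other tools were not summarised for them.

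**Figure D4:**
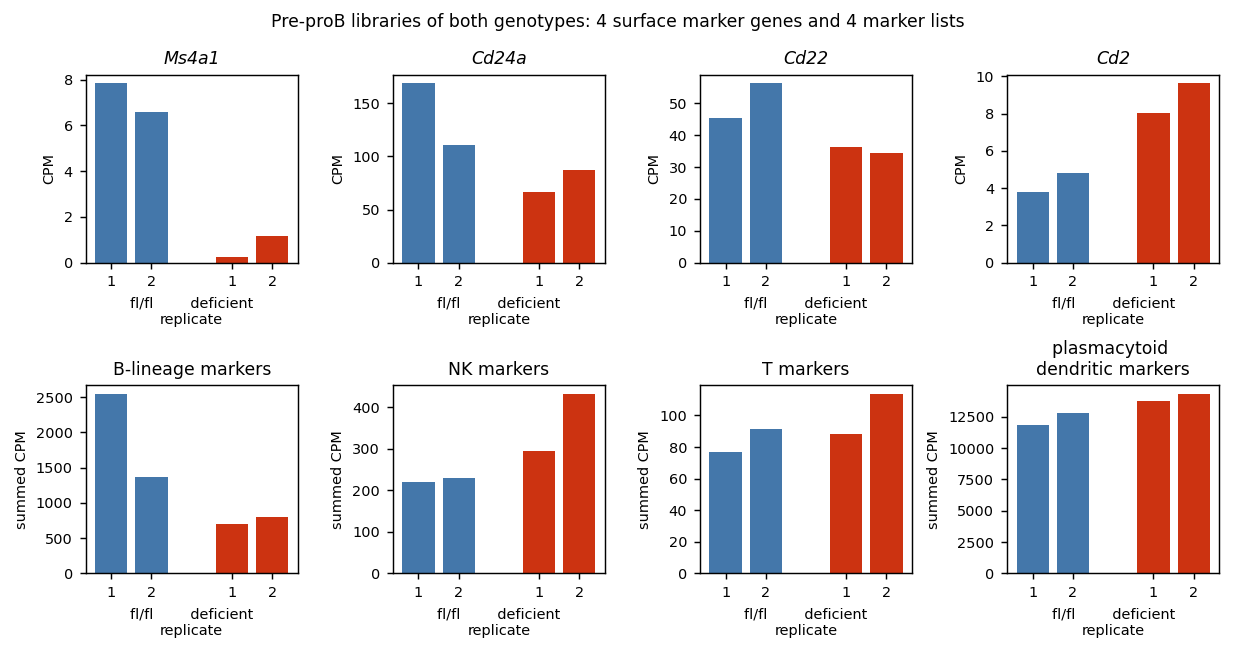
Bars give the level in CPM of *Ms4a1*, *Cd24a*, *Cd22* and *Cd2*, and the summed CPM of the B-lineage, NK, T and plasmacytoid dendritic marker lists, in the 2 control (fl/fl) and 2 Erg-deficient pre-proB libraries. *Ms4a1* is at 7.83 and 6.56 CPM in the controls against 0.25 and 1.16 CPM, *Cd2* is higher in both Erg-deficient libraries, and so is the NK sum.

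The 4 groups were put in order of mean CPM for each gene, and a fit over all 8 libraries compared each group with the next. The pairs were thus chosen from the same values that were tested, and the stage pairs repeat comparisons given above. Of 27 such pairs of neighbours 21 differed at an adjusted p below 0.05, while the share of all 13815 genes called in this fit was 3.2% between the genotypes, 72.6% between proB and pre-proB, 58% between preB and proB, 69.9% between preB and pre-proB, and 76.3% between proB and Erg-deficient pre-proB cells. The 6 pairs that did not differ were the 2 genotypes of pre-proB cells for *Ptprc*, *Spn*, *Cd72*, *Il2ra* and *Cd38*, and proB and preB cells for *Cd24a*. *Cd22*, *Ms4a1* and *Cd72* had the same order, preB, proB, control pre-proB and Erg-deficient pre-proB from the top, although the last pair was not separated for *Cd72*. *Cd2*, *Il2ra* and *Cd38* had Erg-deficient above control pre-proB cells at the bottom, a difference called for *Cd2* only. The genotype neighbours called in this fit were *Ms4a1* (edgeR adjusted p = 0.00404), *Cd22* (edgeR adjusted p = 0.0234) and *Cd24a* (edgeR adjusted p = 0.0384) as lower and *Cd2* as higher in Erg-deficient cells, against 2.7% of genes called lower and 0.499% called higher. In this fit the proB and preB libraries add to the estimate of the spread.

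The genes most like each surface marker gene over the 8 libraries were found by Pearson's r of log2 CPM among 10321 genes with a mean of at least 5 CPM. For *Ms4a1* they were *Fcmr* (r = 0.996), the gene of the IgM Fc receptor, and *Scd1* (r = 0.994), a lipid desaturase gene. For *Cd2* they were *Dusp10* (r = 0.997) and *Ddx47* (r = 0.995), and for *Il2ra* *Rbm24* (r = 0.998) and *Bcl2l11* (r = 0.998). *Cd22* was most like *Med24* and *Snrnp35*, *Cd72* most like *Gpd1l* and *Mtpap*, *Cd38* most like *Adam10* and *Fgd6*, *Cd24a* most like *Zmym1* and *Msra*, *Spn* most like *Ergic1* and *Dglucy*, and *Ptprc* most like *Fgfr1op2* and *Tpp1*. Among the 9 genes themselves *Cd72* and *Il2ra* were the closest pair (r = 0.997), *Spn* was opposite to *Cd72* (r = -0.997), and *Ptprc* and *Cd38* were the least related (r = -0.45). The 8 points share 4 groups, so such values describe the order of the groups more than variation within them.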

How the data were processed

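The authors sequenced mRNA libraries of sorted cells with paired-end reads of 100 bases. Per the labels and the study's methods they removed adapters with Trim Galore, aligned reads to mm10 (GRCm38) with STAR, and counted reads per Entrez gene with featureCounts. CASAVA 1.8.2 is also named in the submitters' processing notes. The deposited values are raw counts, without normalization. For strand use, the STAR version and multimapping reads, settings were not given in the sources used here. Reads of overlapping genes (for *Cd72*, *Ms4a1*, *Il2ra* and *Cd38*) may thus be shared.

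CPM used TMM library sizes over 8 libraries. FPKM divided CPM by the union of exons of the GENCODE vM21 transcripts that match a RefSeq mRNA. Genes that reached 0.5 CPM in 2 or more libraries were tested with edgeR 4.0.16 in R 4.3.3 (legacy quasi-likelihood fit and F-test, two-sided), with Benjamini-Hochberg adjustment over all genes tested. Stages were compared within the 6 control libraries, genotypes within the 4 pre-proB libraries, and neighbours in the order of mean CPM over all 8. SE was obtained as the ratio of the log2 fold change to the root of F. Folds are ratios of mean CPM. The procedure was also run on counts simulated with edgeR's own estimates of spread, so that run cannot test the assumptions of the fit. Replicates differed by more than counting noise (chi-square per degree of freedom 3.82 to 8.29). With 2 libraries against 2, edgeR borrows its estimate of spread from all genes.

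Of 27179 identifiers 25275 had a RefSeq symbol, and those without one held 0.577% of counts and stayed in the tests. The surface marker genes, partner lists and marker lists were chosen with earlier results of these data known. All 9 surface marker genes were named, with at most 2 called genes of lowest p per partner list and comparison, and the 2 genes most like each. Genes named besides these, among them *Ncr1*, *Trbc1* and *Erg*, were chosen after their values were seen or as checks. Alternatives were DESeq2 1.42.0 size factors or total counts, 3 other filters, DESeq2, limma-voom (limma 3.58.1), 2 other quasi-likelihood settings, no immunoglobulin genes, a replicate block, all 8 libraries, and each library left out in turn.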

Additional observations from a re-analysis of the deposited data

How the results depend on the processing

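The stage calls of the 9 genes kept their direction and their side of the threshold in 18 of 18 alternatives, except that *Cd24a* passed between preB and proB cells without control pre-proB replicate 1, which gave 2 genes lower in place of 1. The genotype comparison was less stable. The number of surface marker genes lower was 1, and became 2 with DESeq2, 0 with limma-voom, robust estimation or the replicate block, 3 with all 8 libraries, and 0 to 2 with 1 library left out. The number higher was 0, and became 1 with all 8 libraries and 0 to 1 with a library left out (1 without control replicate 2). *Ms4a1* was -3.38 with the replicate block, with an edgeR adjusted p of 0.0521. Values near 0 changed sign with 1 library left out for *Cd72*, which ranged from -0.12 to 0.038 (0.011 without Erg-deficient replicate 1), and for *Cd38*, which ranged from -0.015 to 0.21. Over all genes, 28 were higher and 123 lower. The higher count became 18 with total counts, 53 with no filter, 88 with DESeq2, 7 with limma-voom, 47 with the replicate block, 69 with all 8 libraries, and 1 to 70 with a library left out. The lower count became 226, 312, 34, 218 and 373 with no filter, DESeq2, limma-voom, the replicate block and all 8 libraries, 69 with the version 4 quasi-likelihood method, 80 with robust estimation, and 6 to 331 with a library left out. The lowest, 6, came without Erg-deficient replicate 1, where 62.5% of calls were higher, against 18.54% with all 4 pre-proB libraries. The cause was not tested. Where 1 library stood alone, its spread was taken from the other groups. Replicate numbers were not shown to pair libraries: deviations of same-numbered libraries correlated between -0.035 and 0.150. The replicate block changed no other call of the 9 genes. *Ms4a1* rests on 4 and 18 counts in the Erg-deficient libraries, which limits the precision of its fold.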
